A study of Mus musculus with 4 samples.

Results

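The 10 alpha and beta tubulin isotype genes, which encode the paired subunits of microtubules, were examined in 4 RNA-seq libraries of iMOP cells. iMOP is a mouse cell line made by immortalizing progenitors of the inner ear. The genes were taken by name: the 3 alpha genes Tuba1a, Tuba1b and Tuba1c and the 7 beta genes Tubb2a, Tubb2b, Tubb3, Tubb4a, Tubb4b, Tubb5 and Tubb6, which are 10 of the 49997 gene rows in the files. Of these, 9 had at least 1 count and 8 passed the count filter. The neuron libraries, numbered 1 and 2, came from cells labelled iMOP-derived neurons, kept in Neurobasal with K03861 at 1 µM, L-glutamine at 2 mM and the supplement N21. K03861 blocks CDK2, a kinase of the cell cycle. The proliferating libraries, also numbered 1 and 2, came from cells in DMEM/F12 with N21, 25 µg/ml carbenicillin and the growth factor bFGF at 20 ng/ml. Both groups are wild-type cells of the same line, so every library comes from 1 line, and the labels do not say whether the 2 libraries of a group came from separate cultures. Any p-value therefore measures the spread between these libraries, which may be technical.

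Microtubules are polymers of alpha and beta tubulin dimers, and mammals carry a family of genes for each chain. The isotypes are nearly the same along most of their length and differ mainly in an acidic tail at the carboxyl end, where modifying enzymes and motor proteins act. Tubb5 and Tubb4b are widely expressed beta isotypes of dividing and non-dividing cells, and Tuba1b and Tuba1c are widely expressed alpha isotypes. Tubb3 is used throughout the nervous system as a marker of neurons, Tubb2b and Tuba1a are high in newly formed neurons, Tubb2a and Tubb4a are brain isotypes, and Tubb6 is a minor isotype of other tissues.

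The end of the coding sequence, which encodes the tail, is compared first. How far reads can be shared among them is given below by windows of the whole mRNA. The last 60 coding bases, stop codon included, are given 5′ to 3′ from GENCODE M21 transcripts (mm10) for the beta isotypes that the results turn on. Tubb2a (chr13:34074468-34074527, minus strand) is printed in lower case as the base of comparison for Tubb2b (chr13:34127471-34127530, minus strand), and Tubb5 (chr17:35834982-35835041, minus strand) for Tubb3 (chr8:123421623-123421682, plus strand) and Tubb4b (chr2:25222308-25222367, minus strand). Capitals mark bases that differ from the base of comparison, or have no counterpart in it, in a global alignment of the whole coding sequences.
Tubb2a: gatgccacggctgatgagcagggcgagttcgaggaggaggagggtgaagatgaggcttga
Tubb2b: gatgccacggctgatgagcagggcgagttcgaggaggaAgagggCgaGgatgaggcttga
Tubb5: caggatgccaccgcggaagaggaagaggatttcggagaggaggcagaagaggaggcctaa
Tubb3: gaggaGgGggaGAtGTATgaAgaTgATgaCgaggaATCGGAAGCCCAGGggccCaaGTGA
Tubb4b: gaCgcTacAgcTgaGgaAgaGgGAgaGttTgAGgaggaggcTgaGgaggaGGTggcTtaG

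Tubb2b differed from Tubb2a at 3 of these bases, all of them silent, so both stretches encode the same amino acids. Tubb3 and Tubb4b had 32 and 20 marked bases against Tubb5. Over the whole coding sequence Tuba1a and Tuba1b were 98.3% identical, Tuba1a and Tuba1c 97.1%, Tubb2a and Tubb2b 96.5%, and Tubb3 and Tubb5 81.2%. Of all 50-base windows of the longest coding mRNA, 52.0% in Tuba1a, 64.6% in Tuba1b, 59.8% in Tuba1c, 45.6% in Tubb2a and 33.4% in Tubb2b also occurred in another of the 10 genes. No window of Tubb3 did, and 0.0385% of those of Tubb5 did. Tubb4b shared no window with another of the 10 genes but 55.5% with any other annotated gene, mostly its pseudogenes Tubb4b-ps1 and Tubb4b-ps2. Shared with any other annotated gene were also 75.5% of windows in Tuba1a, 83.1% in Tuba1b, 61% in Tuba1c, 49.6% in Tubb2a and 39.3% in Tubb2b. The treatment of reads with several matches is not given in the sources used here. The split between Tuba1a, Tuba1b and Tuba1c and that between Tubb2a and Tubb2b are therefore uncertain. Levels of the alpha genes and of Tubb4b, and their ratios to other genes, may also hold or lack reads shared outside the 10 genes. Tubb3 and Tubb5 share almost no such windows.

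The genes lie in 2 clusters and at single sites of mm10. Tuba1b (98931425 to 98934565), Tuba1a (98949837 to 98953703) and Tuba1c (99029891 to 99038110) are neighbours on chromosome 15, and Tubb2a (34074274 to 34078007) and Tubb2b (34126748 to 34130466) are neighbours on chromosome 13. Tubb3 is on chromosome 8 (123411424 to 123422015), Tubb4b on chromosome 2 (25222160 to 25224702), and Tubb5 (35833921 to 35838306) and Tubb4a (57080066 to 57087782) are both on chromosome 17. The longest coding mRNA of each of the 10 genes had 4 exons. Tuba1b overlaps the antisense gene Gm41396, which had 49 and 8 counts in the neuron libraries and 2 and 4 in the proliferating ones, and Tubb4b overlaps Fam166a on the other strand, with 6 and 1 counts in the neuron libraries and 0 in the proliferating ones. Whether counting used the strand is not stated, so reads of these overlaps are uncertain. Tuba1a and Tuba1b also overlap Gm49450 on the same strand, where strand cannot separate the reads. The span of Tubb3 overlaps that of Gm20388 on the same strand. No 50-base window of the Tubb3 mRNA, however, occurred in any other annotated gene's transcripts.

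The libraries are shallow for messenger RNA. Total counts ran from 3150354 to 32913243, but 88.2% to 98.1% of them fell on 7 ribosomal RNA or rRNA-like genes, and 292302 to 3241915 counts remained. Levels are given in CPM, each count scaled to the library total outside those 7 genes. Neuron 1 was the deepest with 3241915, against 617872 in neuron 2, 292302 in proliferating 1 and 614465 in proliferating 2. The libraries also differed by number. The difference of log2 CPM between numbers 1 and 2 ran with the GC content of the transcript, with a Spearman correlation over 8671 genes of 0.84 in the neuron libraries and 0.64 in the proliferating libraries. Genes share the library, so this is a description. Marker lists ran both with and against the labels. A list of 10 genes of dividing cells summed to 2264 and 3400 CPM in neuron libraries 1 and 2 and to 287 and 555 CPM in proliferating libraries 1 and 2. A list of 12 neuron genes summed to 1296 and 1191 CPM in the neuron libraries and to 1868 and 2453 CPM in the proliferating ones. Map2 alone had 563 and 795 against 1119 and 1284 CPM. Rbfox3 went the other way, at 54.3 and 4.86 against 13.7 and 3.25 CPM, but on 176 and 3 counts against 4 and 2. Dcx did so within number 1 (286 against 174 CPM) but not within number 2 (165 against 233 CPM). Stmn2 was lower in both neuron libraries, at 11.1 and 4.86 against 82.1 and 127 CPM (36 and 3 counts against 24 and 78). Relative to the median gene, 5 of the 7 neuron genes tested were lower in the neuron library within both numbers and 0 were higher. Of all tested genes, 27.4% were lower and 27.4% higher. The 8 otic progenitor markers summed to 2447 and 1486 CPM in the neuron libraries and to 3188 and 7398 CPM in the proliferating ones, most of it Vim at 1512 and 974 CPM against 2166 and 6153 CPM. Of these markers, Pax8 had 0 counts in every library, Pax2 had 1 count in all, and Sox2 had 143 and 157 CPM in the neuron libraries and 359 and 407 CPM in the proliferating ones. Summed glial markers were at 254 and 304 CPM in the neuron libraries and 783 and 386 CPM in the proliferating ones (Sox10 at 0), hair cell markers at 107 and 139 against 318 and 114 CPM (Pou4f3 and Otof at 0), mesenchymal markers at 437 and 210 against 633 and 487 CPM (Col1a2 at 0), and immune markers at 6.79 and 1.62 against 13.7 and 0 CPM (Cd3e at 0). The part of these cell types in the tubulin values was not tested. The groups are named here by their labels, and the sign of every difference between neuron and proliferating libraries rests on those labels.

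The beta isotype mix differed between the groups more than it did within them. Levels of different genes are compared per length, by the deposited RPKM, which divides counts by gene length and library total. Tubb3 and Tubb2b together made up 51.2% and 43.2% of the summed RPKM of Tubb3, Tubb2b, Tubb5, Tubb4b and Tubb6 in neuron libraries 1 and 2, and 80.7% and 70.2% in proliferating libraries 1 and 2. The means were 47.2% ± 5.69 in the neuron libraries and 75.4% ± 7.40 in the proliferating libraries (SD, n = 2 each). The 2 groups did not overlap, with a difference, neuron minus proliferating, of -28.3 percentage points on average, -29.5 between the libraries numbered 1 and -27.1 between those numbered 2. The exact two-sided permutation test gave p = 0.333, the smallest that 2 libraries against 2 allow. A share within a library does not depend on how libraries are scaled to each other. In bulk RNA, fewer cells of a type and less RNA per cell cannot be told apart.

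The size of these percentages depends on the length taken for Tubb5. Dividing counts by RPKM gave a length of 7941 bases for Tubb5, against 2649 bases for its longest coding mRNA and a gene span of 4386 bases, so its deposited RPKM is low relative to the other isotypes. For the other 8 members with counts the deposited length was 0.881 to 1.00 times the mRNA length. With mRNA lengths, a setting added after the data were examined, Tubb3 and Tubb2b made up 28.1% and 21.4% in the neuron libraries and 59.8% and 47.6% in the proliferating libraries. By counts alone, 2602 of 11053 reads of the 5 genes were Tubb3 or Tubb2b in neuron 1 (23.5%, 95% Wilson interval 22.8 to 24.3) and 42 of 228 in neuron 2 (18.4%, 13.9 to 24.0). In proliferating 1 they were 485 of 899 (53.9%, 50.7 to 57.2) and in proliferating 2 they were 435 of 995 (43.7%, 40.7 to 46.8). Reads can be copies of 1 molecule, so the intervals hold for counting error and nothing more. On each of these scales the groups did not overlap, and the mean difference was -28.3, -28.9 and -27.9 percentage points by RPKM, mRNA length and counts.

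**Figure D1:**
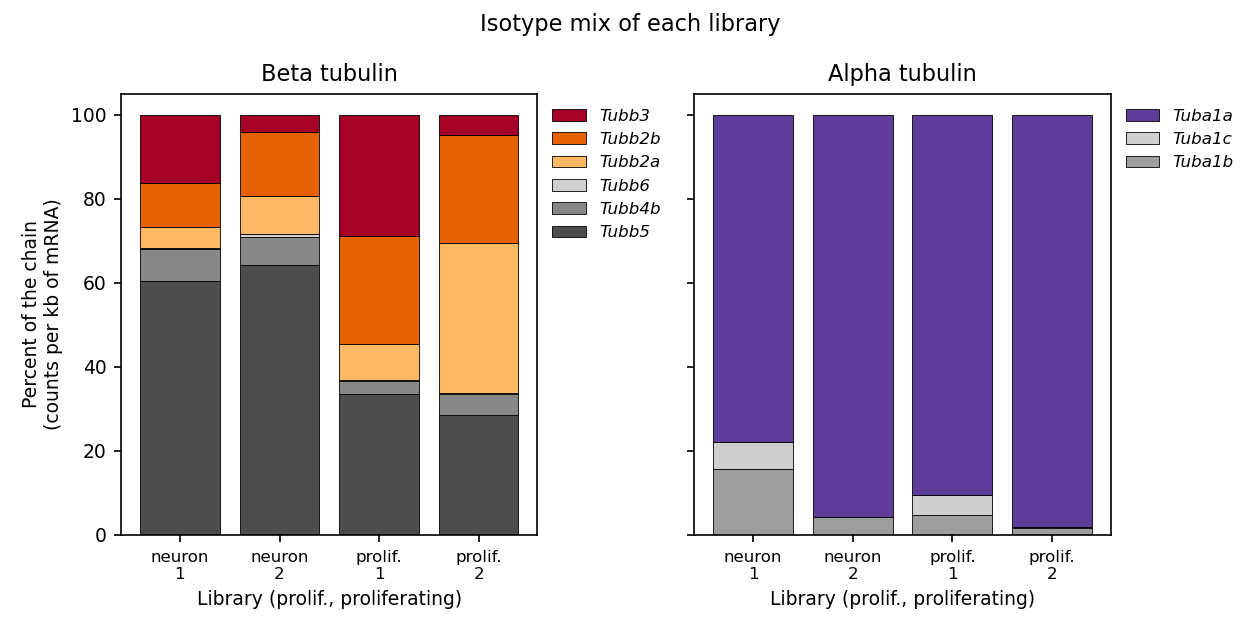
Percent of summed beta tubulin (left) and alpha tubulin (right) contributed by each isotype, in counts per kilobase of GENCODE mRNA, with 1 bar per library. Tubb5 takes 60.4% and 64.2% of beta tubulin in the neuron libraries and 33.6% and 28.6% in the proliferating libraries, while Tubb3 varies more by number than by group.

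Tubb5, the widely expressed isotype, was the largest part of beta tubulin per kilobase of mRNA in every library except proliferating 2, where Tubb2a was larger. It took 60.4% and 64.2% of the 7 beta isotypes in the neuron libraries and 33.6% and 28.6% in the proliferating libraries. By deposited RPKM Tubb5 was the largest part only in the neuron libraries, at 32.3% and 35.9%, against 13.4% and 11.2% in the proliferating ones. The groups did not overlap on either scale. Per kilobase of mRNA, Tubb2b took 10.5% and 15.2% in the neuron libraries and 25.8% and 25.7% in the proliferating libraries, again without overlap. Tubb3 took 16.2% and 4.19% in the neuron libraries and 28.9% and 4.81% in the proliferating libraries. On this scale its share was lower in the neuron library within each number, but it followed the number far more than the group. By deposited RPKM Tubb3 took 27.9% and 7.54% in the neuron libraries and 37.2% and 6.09% in the proliferating libraries. Its share was then higher in neuron 2 than in proliferating 2, and the neuron 2 value rests on 8 counts. Per kilobase of mRNA, Tubb4b took 7.66% and 6.73% in the neuron libraries and 3.13% and 4.97% in the proliferating libraries.

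Tubb2a stood apart in 1 library. It took 5.15% and 9.11% of beta tubulin in the neuron libraries and 8.47% in proliferating 1, but 35.8% in proliferating 2. Its pseudogene Tubb2a-ps2 had 12 and 2 counts in the neuron libraries, and 3 and 19 counts in the proliferating ones, the highest count being in the same library. When the share of Tubb3 and Tubb2b was taken of all 7 beta isotypes by deposited RPKM, it was 47.0% and 36.6% in the neuron libraries and 72.4% and 40.5% in the proliferating libraries, so the groups overlapped (exact permutation p = 0.667). That overlap depended on the deposited length of Tubb5: with mRNA lengths the same share was 26.7% and 19.4% in the neuron libraries and 54.7% and 30.5% in the proliferating libraries, without overlap (exact permutation p = 0.333). When Tubb2a was instead counted with Tubb3 and Tubb2b, the share was 55.2% and 51.9% in the neuron libraries and 82.6% and 82.8% in the proliferating libraries, with a difference of -29.2 percentage points and no overlap (exact permutation p = 0.333).

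Ratios between isotype counts were also compared within each number, which needs neither a length nor a library scaling. The ratio of Tubb3 and Tubb2b counts to those of Tubb5, Tubb4b and Tubb6 was 0.308 in neuron 1 and 1.17 in proliferating 1, a log2 difference of -1.93 (95% counting interval -2.13 to -1.73). It was 0.226 in neuron 2 and 0.777 in proliferating 2, a log2 difference of -1.78 (-2.30 to -1.27). These intervals compare single libraries, not conditions. The ratio of Tubb2b to Tubb5 was 0.143 in neuron 1 and 0.634 in proliferating 1, and 0.195 in neuron 2 and 0.741 in proliferating 2, with log2 differences of -2.15 (-2.40 to -1.90) and -1.92 (-2.49 to -1.36). The transcript GC content was 51.2% in Tubb2b and 52.0% in Tubb5. Tubb3, at 57.9% GC, had log2 differences to Tubb5 of -1.68 (-1.93 to -1.44) and -1.37 (-2.46 to -0.27). Tubb3 in neuron 2 rests on 8 counts. The ratio of Tubb2a to Tubb5 differed by -1.57 within number 1 and by -3.14 within number 2. The ratio of Tubb4b to Tubb5 had intervals that included 0 within both numbers, at 0.44 (-0.19 to 1.07) and -0.73 (-1.70 to 0.24).

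**Figure D2:**
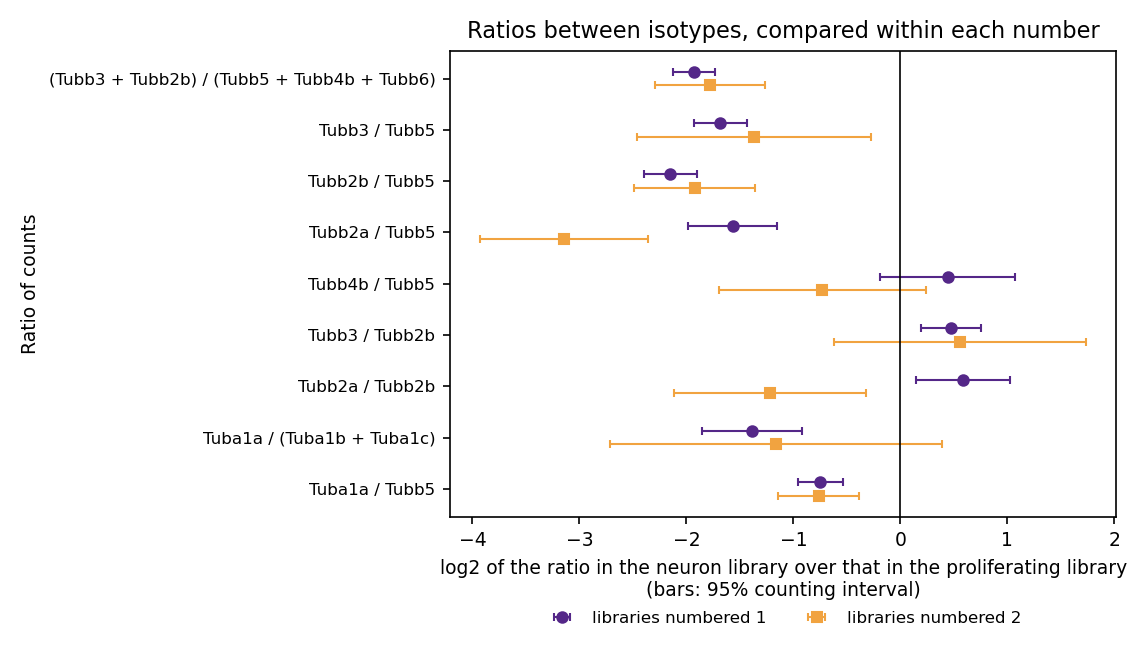
Log2 of each ratio of isotype counts in the neuron library over the same ratio in the proliferating library, for the libraries numbered 1 and those numbered 2, with 95% counting intervals as bars. Ratios of Tubb3, Tubb2b, Tubb2a and Tuba1a to Tubb5 lie below 0 within both numbers, while Tubb4b to Tubb5 includes 0 within both.

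Single genes were then compared with edgeR's quasi-likelihood test on raw counts of all genes. With group alone in the model it called 0 of 9009 tested genes in either direction (0% of tested genes higher and 0% lower), with 97 genes at an unadjusted p under 0.05. DESeq2 also called 0, with 190 under it. Of the 10 members 8 passed the count filter. Tubb4a and Tubb6 were not tested, and of the 8 tested 0 were called. Median log2 fold changes, neuron over proliferating, were -0.27 over the 8 tested members and -0.033 over all tested genes. Differences named below are therefore values, with their spread.

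Among the neuron-enriched beta isotypes, Tubb2b had 345 and 55.0 CPM in neuron libraries 1 and 2 and 848 and 610 CPM in proliferating libraries 1 and 2 (1120 and 34 counts, against 248 and 375). The 2 groups did not overlap. Its log2 fold change was -2.01 (SE 1.13, 2 libraries per group). Tubb2a had 125 and 24.3 CPM in the neuron libraries and 205 and 627 CPM in the proliferating ones (406 and 15 counts, against 60 and 385), also without overlap, and its log2 fold change was -2.68 (SE 1.16, unadjusted p = 0.0384 and adjusted p = 1.00 in edgeR). Both neuron libraries lay below both proliferating libraries for these 2 of the 8 tested members, and 8.5% of all tested genes had groups that did not overlap in that direction. No tested member had neuron libraries that were both higher, against 9.41% of tested genes.

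Tubb3 had 457 and 12.9 CPM in the neuron libraries and 811 and 97.6 CPM in the proliferating ones (1482 and 8 counts, against 237 and 60). The libraries numbered 1 were high and those numbered 2 low, so the groups overlapped. Its log2 fold change was -1.09 (SE 1.37), and without proliferating 1 it was 0.95. Over the 4 libraries, the 3 genes with a level pattern closest to that of Tubb3, by Euclidean distance of centred log2 CPM among 5351 genes, were Nkain1, Wdr6 and Ppp2r1a, at distances of 0.55, 0.61 and 0.66. All 3 were also high in the libraries numbered 1 and low in those numbered 2. Wdr6, as an example, had 254 and 6.47 CPM in the neuron libraries and 281 and 35.8 CPM in the proliferating ones.

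Tubb4a, a brain isotype, had 0 counts in all 4 libraries, which allows a level of up to 0.925 and 4.86 CPM in neuron libraries 1 and 2 and up to 10.3 and 4.88 CPM in proliferating libraries 1 and 2. Among the widely expressed beta isotypes, Tubb5 had 2419 and 282 CPM in the neuron libraries and 1338 and 823 CPM in the proliferating ones (7843 and 174 counts, against 391 and 506). The neuron libraries were the highest and the lowest of the 4. Its log2 fold change was 0.16 (SE 1.20). Tubb4b had 185 and 17.8 CPM in the neuron libraries and 75.3 and 86.3 CPM in the proliferating ones, again with neuron 1 the highest and neuron 2 the lowest, and a log2 fold change of 0.13 (SE 1.08). Tubb6 had 8 and 1 counts in the neuron libraries and 1 count in each proliferating library, too few for a fold change.

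**Figure D3:**
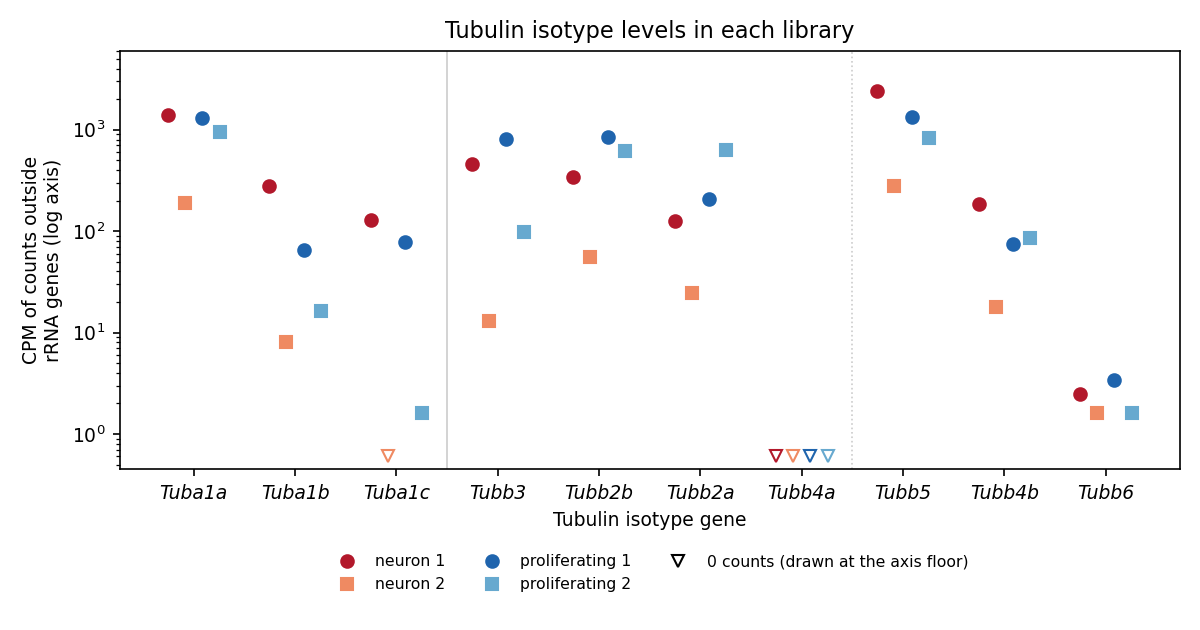
Level of each tubulin isotype in each library, as CPM of the counts outside ribosomal RNA genes on a log axis, with open triangles for 0 counts. Only Tubb2b and Tubb2a have both neuron libraries below both proliferating libraries. Neuron 2 is the lowest library for each of the 9 isotypes with counts, Tubb6 resting on 1 count there.

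Tuba1a, the alpha isotype of young neurons, was the most abundant alpha isotype in every library. It had 1408 and 189 CPM in the neuron libraries and 1310 and 941 CPM in the proliferating ones (4566 and 117 counts, against 383 and 578). Neuron 2 alone was low. Its log2 fold change was -0.66 (SE 1.17), and without neuron 2 it was 0.072. Tuba1b had 275 and 8.09 CPM in the neuron libraries and 65.0 and 16.3 CPM in the proliferating ones, resting on 893 and 5 counts against 19 and 10. Neuron 1 was the highest and neuron 2 the lowest, and the log2 fold change was 1.67 (SE 1.31), or -1.98 without neuron 1. Tuba1c had 129 and 0 CPM in the neuron libraries, the 0 allowing up to 4.86 CPM, and 78.7 and 1.63 CPM in the proliferating ones, and its log2 fold change was 0.61 (SE 1.69).

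The alpha mix overlapped between the groups. Tuba1a made up 78.6% and 95.8% of summed alpha tubulin RPKM in the neuron libraries and 91.0% and 98.1% in the proliferating libraries, with means of 87.2% ± 12.2 in the neuron libraries and 94.6% ± 5.04 in the proliferating libraries (SD, n = 2 each, exact permutation p = 0.667). Tuba1a's share was lower in the neuron library within each number, with differences of -12.4 percentage points within number 1 and -2.30 within number 2. The log2 difference of the ratio of Tuba1a to Tuba1b and Tuba1c was -1.39 within number 1 (-1.86 to -0.92). Within number 2 it was -1.17 (-2.72 to 0.38), where only 5 counts of Tuba1b and 0 of Tuba1c stood behind the neuron value. Relative to Tubb5, Tuba1a differed by -0.75 within number 1 (-0.96 to -0.54) and by -0.76 within number 2 (-1.14 to -0.39).

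Alpha against beta tubulin as a whole was close between the libraries of a group. The ratio was taken of summed alpha to summed beta counts per kilobase of mRNA. It was 0.664 and 0.662 in the neuron libraries and 0.534 and 0.489 in the proliferating ones. The groups did not overlap. The neuron 2 ratio rests on 122 alpha and 243 beta counts, and no counting interval or test was run for these ratios. The 10 genes together made up 5347 and 591 CPM in the neuron libraries and 4735 and 3204 CPM in the proliferating ones. Neuron 2, with 365 tubulin counts in all, was far below the other 3 libraries. The mean log2 ratio of these sums was -1.13, being 0.18 within number 1 and -2.44 within number 2 (exact permutation p = 1), so no common direction was seen for the family.

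Within each number, the log2 ratio of neuron over proliferating was also taken for each gene, less the median ratio over tested genes. The 4 members Tuba1a, Tubb3, Tubb2b and Tubb2a were lower in the neuron library within both numbers, as were 27.4% of all tested genes, and 0 members were higher within both, against 27.4% of all tested genes. Tubb2b was at -1.46 within number 1 and -3.23 within number 2, Tubb2a at -0.88 and -4.41, and Tubb3 at -0.997 and -2.59. Tuba1a was at -0.069 and -2.09. Tubb5 was at 0.68 within number 1 and -1.33 within number 2, Tubb4b at 1.11 and -1.99, and Tuba1b at 1.88 and -0.71, so these 3 had opposite signs. Every member with a value was lower within number 2 than within number 1. Tubb3, Tubb2b and Tubb2a lay below Tubb5 and Tubb4b within both numbers.

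**Figure D4:**
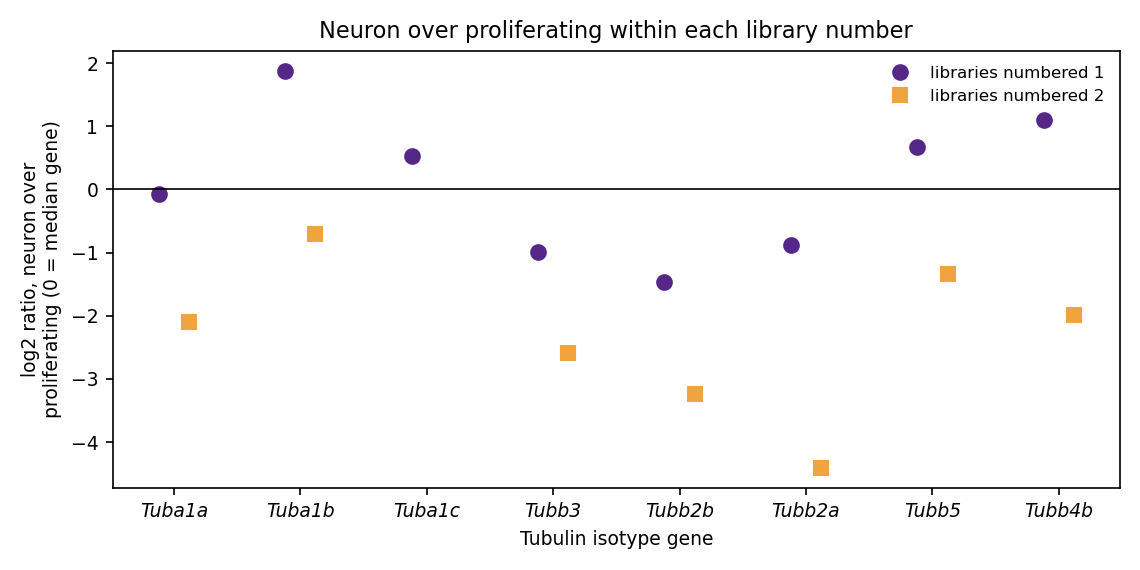
Log2 ratio of neuron over proliferating for each tested isotype within the libraries numbered 1 (circles) and those numbered 2 (squares), where 0 is the median of all tested genes. Tubb3, Tubb2b and Tubb2a lie below 0 within both numbers, and Tubb5, Tubb4b and Tuba1b lie above 0 within number 1 and below 0 within number 2. Tuba1c has no value within number 2, where it had 0 and 1 counts.

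With the replicate number as a factor in the model, edgeR called 56 genes higher and 29 lower, which is 0.622% and 0.322% of tested genes. Of the 8 tested members 0 were called higher and 2 lower, namely Tubb2b and Tubb2a. Tubb2b had a log2 fold change of -2.32 with SE 0.63 and Tubb2a one of -2.56 with SE 0.70, and both had an edgeR adjusted p of 0.0426. Tubb3 had a log2 fold change of -1.69 (SE 0.63, adjusted p = 0.243 in edgeR). The calls of Tubb2b and Tubb2a ended with a GC correction in the same fit, at -2.08 and -2.21 (adjusted p = 0.221 and 0.355 in edgeR). They also ended when libraries were scaled by totals alone (adjusted p = 0.0545 and 0.0617 in edgeR) or when the ribosomal RNA genes were kept (adjusted p = 0.0694 and 0.0699 in edgeR). In this fit 4 of the 10 genes of dividing cells were called higher, 1 neuron marker lower and 2 glial markers lower, and their part in the tubulin result was not tested. Across 8671 genes the fold change of that fit had a Spearman correlation of -0.49 with transcript GC content. The members' transcripts lie at 51.2% to 57.9% GC, against a median of 49.3% over tested genes.

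Other genes of tubulin biology gave 0 calls in either direction in both fits, where 0% of all tested genes were called with group alone and 0.622% higher and 0.322% lower with the replicate number as a factor. Of 10 other tubulin genes, Tuba3a, Tuba3b, Tubal3 and Tubb1 had 0 counts, and only Tubg1 was tested. Tubg1, the gamma tubulin that starts microtubules, had 77.1 and 8.09 CPM in the neuron libraries and 27.4 and 0 CPM in the proliferating ones. These values rest on 250 and 5 counts against 8 and 0, the 0 allowing up to 4.88 CPM. The log2 fold change of Tubg1 was 1.68 (SE 1.62). Of 21 genes of tubulin folding, 19 were tested, with a median log2 fold change of -0.26. Relative to the median gene, their median was 0.44 within number 1 and -0.68 within number 2, so the numbers differed in sign. Cct2 and Cct6a, subunits of the chaperonin that folds tubulin, had values of -0.38 and -0.64, and their groups overlapped. Of 18 genes that modify tubulin, 13 were tested, with a median of 0.0099. The polyglutamylase Ttll4 was at 0.21 and Agtpbp1, which removes glutamates from tubulin tails, at 0.60. Of 16 genes of microtubule nucleation, 12 were tested, with a median of 0.61. Haus6, a subunit of the augmin complex that branches spindle microtubules, had 115 and 280 CPM in the neuron libraries and 44.5 and 76.5 CPM in the proliferating ones, without overlap, and a log2 fold change of 1.82 (SE 1.06). Tubgcp3, of the gamma tubulin ring complex, was at -0.43. The median over all tested genes was -0.033.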

How the data were processed

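The authors deposited raw counts per gene, 1 file per library. They also deposited RPKM, the count over gene length and library total. The build mm10 and the tools featureCounts, HISAT2, DESeq2 and SAMtools are named per the submitters' processing notes. Versions, annotation and strand setting are not given in the sources used here. Per the labels' protocols, ribosomal RNA was depleted from total RNA and a stranded kit was used. The RPKM totals include ribosomal RNA counts, so RPKM was used for shares within a library and, between libraries, only in alternatives.

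Here, 7 ribosomal RNA or rRNA-like genes (mt-Rnr1, mt-Rnr2, Rn18s-rs5, AY036118, Gm15564, Lars2 and Mir6236) were set aside. The remaining counts were fitted with edgeR 4.0.16 (R 4.3.3; quasi-likelihood test, TMM, filterByExpr, group alone), with Benjamini-Hochberg adjustment over 9009 genes at a threshold of 0.05, and log2 CPM used a prior count of 2. SE is the log2 fold change over the root of the test's F value. DESeq2 1.42.0, limma 3.58.1 on log2(RPKM + 0.1) and log2(RPKM + 1), and other scalings and filters were alternatives. Adding the replicate number as a factor reduced the residual degrees of freedom to 1, against 2 without it. Shares and sums were compared with exact permutation tests (SciPy 1.17.1). The fit code was also run on simulated counts without differences by number or GC content. That run checks the code, not how the fits behave on these libraries. Sequences, lengths and GC content came from GENCODE M21, and 96.2% of tested genes had a GC value. Sequences of the alpha isotypes are not reported here. The members, gene lists and tests were chosen with earlier results of these data known. All 10 members were named, together with up to 3 called genes per direction and pathway list, or the 2 with the highest mean, and for Tubb3 the 3 genes of closest pattern among genes averaging log2 CPM 5 or more, leaving out predicted genes, pseudogenes and small RNAs.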

Additional observations from a re-analysis of the deposited data

How the results depend on the processing

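The lower share of Tubb3 and Tubb2b in the neuron libraries kept its sign under all 11 alternatives run, but several of these could not turn it. Leaving out a library gave -33.5 to -23.0 percentage points, where groups without overlap fix the sign, and the replicate block left the value unchanged. The difference was -14.7 for all 7 beta isotypes and -21.2 for Tubb3 alone. Tubb3 alone, against Tubb5, Tubb4b and Tubb6, made up 38.4% and 13.5% of RPKM in the neuron libraries. It made up 68.2% and 26.2% in the proliferating libraries, so the groups overlapped (exact permutation p = 0.667). The alpha share difference of -7.37 was between -16.0 and 1.26 when a library was left out, the last without neuron 1. The summed level, at -1.13, was between -2.72 and 0.46, the last without neuron 2, and 0.035 with CPM of all counts.

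With group alone, 0 genes were called under every scaling, filter and tool run on all 4 libraries. At an unadjusted p under 0.05 there were 97 of 9009 genes in edgeR and 190 of 23761 in DESeq2. The lack of calls does not show stability in a design of this size. With the replicate block 56 genes were called higher and 29 lower, 2 of the lower ones members. Settings combined with the block were added after the data were examined. DESeq2 with the block called 42 and 31, and again 2 members lower (Tubb2a and Tubb2b, adjusted p = 0.0253 and 0.00663), against 36 and 19 with library totals, 42 and 15 with ribosomal RNA genes kept, and 1 and 4 with the GC correction. Same-numbered libraries deviated together, with a Pearson correlation across genes of 0.74 from 2 numbers only, and the labels do not say what a number stands for.

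Signs of members turned as follows, and the cause was not tested. Tuba1a, at -0.66, was 0.064 and 0.075 with limma on log2(RPKM + 0.1) and log2(RPKM + 1), scales on which the median of all genes was 0.81 and 0.34 (it was 0.47 with no filter). Tubb4b, at 0.13, was -0.35 with the block, -0.43 with DESeq2 and the block, -0.37 with totals and the block, -0.27 with ribosomal RNA genes and the block, and -0.25 with the GC correction alone. Tubb5, at 0.16, was -0.32, -0.34, -0.34 and -0.24 in the first 4 of these, and -0.033 with the GC correction and the block. Leaving out a library gave -2.31 to 0.072 for Tuba1a (sign turned without neuron 2), -1.98 to 2.80 for Tuba1b (without neuron 1), -7.14 to 4.93 for Tuba1c (without neuron 1 or proliferating 2), -4.80 to 0.95 for Tubb3 (without proliferating 1), -1.93 to 0.90 for Tubb4b (without neuron 1 or proliferating 1) and -1.67 to 0.92 for Tubb5 (without neuron 1 or proliferating 2). Tubb2a stayed between -3.88 and -1.44 and Tubb2b between -3.46 and -1.33. In these fits the lone library of a group is assumed to vary like the others.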
